A study of Rattus norvegicus with 12 samples.

Results

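The 10 genes described here encode beta-catenin (Ctnnb1), the proteins that mark it for degradation (Gsk3b, Gsk3a, Apc, Axin1, Csnk1a1 and Btrc) and the Dishevelled adaptors (Dvl1, Dvl2 and Dvl3). They were chosen by symbol, and all 10 were found among the 21556 genes of the deposited table. Messenger RNA was measured in ND7/23 cells, a line obtained by fusing mouse neuroblastoma N18Tg2 with neurons of the rat dorsal root ganglion. The 12 libraries form 4 groups of 3, each taken at 6 h: untreated control, menthol at 100 μM (which opens the cold channel TRPM8), Wnt3a at 100 ng/ml, and menthol with Wnt3a at those doses. The labels number the libraries of a group 1 to 3 and do not say whether they came from separate cultures, so that p-values measure the spread between these libraries, which may be technical.

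Canonical Wnt signalling is controlled largely through the stability of the beta-catenin protein. Without a Wnt ligand, the scaffolds Axin and APC hold beta-catenin while casein kinase 1α and GSK3 phosphorylate it, and β-TrCP (Btrc) then directs it to the proteasome. A Wnt ligand bound to Frizzled and LRP5 or LRP6 recruits Dishevelled and Axin to the membrane, the complex stops marking beta-catenin, and the protein accumulates and enters the nucleus, where it binds TCF and LEF factors. Axin2, a paralog of Axin1, is a widely used transcriptional target of this step and acts as negative feedback. The study used these cells to ask whether menthol acts on the Wnt/β-catenin pathway. Only RNA levels are considered here, so that neither the amount nor the phosphorylation of any protein is measured by these values.

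The libraries held 36914010 to 38836269 reads on genes, and 16983 to 17386 genes were above 0. Levels are given as FPKM, read fragments corrected for gene length and library size, which allows levels to be compared between genes. The reads were mapped to rat only, so the part of each level that came from mouse transcripts is unknown. That part may differ from gene to gene, which limits the comparison of levels between genes. Of 13 neuronal markers, 2 (Uchl1 and Isl1) had a mean of at least 0.5 FPKM. Uchl1 lay between 94.2 and 111 FPKM and Isl1, a sensory neuron factor, between 9.28 and 17.6 FPKM. Tubb3, Stmn2, Prph, Nefl, Nefm, Gap43, Elavl4, Pou4f1, Scn9a and Calca were listed at 0 in at least 1 library and did not exceed 0.213 FPKM in any, and Snap25 lay between 0.0917 and 0.934 FPKM. The fibroblast gene Col1a2 lay between 109 and 126 FPKM. The other fibroblast markers averaged 6.74 (Col1a1), 6.53 (Pdgfra), 2.36 (Col3a1), 0.194 (Dcn) and 0.0886 FPKM (Lum). The sums below therefore follow mostly Uchl1 for the neuronal list and Col1a2 for the fibroblast list. The summed neuronal markers ranged from 105 to 114 FPKM in control, 111 to 122 with menthol, 114 to 122 with Wnt3a and 115 to 127 under both agents. The summed fibroblast markers, of which 4 of 6 reached 0.5 FPKM, ranged from 136 to 145 in control, 124 to 128 with menthol, 129 to 135 with Wnt3a and 124 to 126 FPKM under both agents. The sums of the glial (2 of 5 markers at 0.5 FPKM), skeletal muscle (1 of 9), macrophage (2 of 5) and endothelial (0 of 3) lists stayed between 0.217 and 9.33 FPKM in every library. In bulk RNA, fewer cells of a type and less RNA per cell cannot be told apart, and the part of these markers in the results below was not tested.

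Sequences before the transcription start are shown for Ctnnb1, which was the most abundant and steadiest of the 10 genes, for Dvl3, which had the largest pairwise difference of the 10, and for Axin2, the pathway gene that rose with Wnt3a. They are the 250 bases before the start, 5′ to 3′, from RefSeq on the GRCr8 assembly, which is a later build than the one the reads were mapped to. Capitals mark the letters of CTTTGA or CTTTGT, the core that TCF and LEF factors read, on either strand. The sequences are Ctnnb1 at chr8:129533887-129534136 on the + strand, Dvl3 at chr11:93886904-93887153 on the - strand and Axin2 at chr10:94398535-94398784 on the + strand.
Ctnnb1: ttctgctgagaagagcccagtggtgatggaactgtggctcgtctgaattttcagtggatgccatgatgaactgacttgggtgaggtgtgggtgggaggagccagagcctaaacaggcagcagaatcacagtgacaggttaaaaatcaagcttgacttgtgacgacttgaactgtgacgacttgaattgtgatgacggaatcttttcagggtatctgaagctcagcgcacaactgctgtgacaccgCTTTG
Dvl3: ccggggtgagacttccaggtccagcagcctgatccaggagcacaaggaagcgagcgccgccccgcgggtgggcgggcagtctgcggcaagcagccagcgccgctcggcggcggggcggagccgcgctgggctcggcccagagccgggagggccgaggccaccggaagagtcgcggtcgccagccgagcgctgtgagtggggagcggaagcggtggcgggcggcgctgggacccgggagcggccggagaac
Axin2: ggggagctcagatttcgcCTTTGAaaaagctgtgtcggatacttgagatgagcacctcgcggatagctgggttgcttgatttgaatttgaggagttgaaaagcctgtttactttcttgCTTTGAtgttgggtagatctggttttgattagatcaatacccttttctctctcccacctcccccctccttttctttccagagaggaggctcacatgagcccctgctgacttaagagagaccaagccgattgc
Over 300 bases, 250 before and 50 after the start, 3 of the 9 members with an entry (Ctnnb1, Gsk3a and Apc) held such a core, and 31.4% of the 33469 windows in the table did. The core of Ctnnb1 runs across the start, so that its last base lies outside the sequence shown. Axin2 held 2 and Dvl3 none. The members differed widely in base composition: the share of G and C in the 250 bases was 34.4% for Gsk3b and 82.4% for Dvl1, where the median over all windows was 51.2%. No entry was used for Axin1.

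The 10 genes were all well measured and spanned a wide range of levels in control cells. Ctnnb1 was the most abundant, at 177 ± 1.91 FPKM (SD, n = 3), which was above 96.9% of the 11451 genes with a mean of at least 0.5 FPKM. Csnk1a1, the priming kinase for beta-catenin, followed at 75.1 ± 0.987 FPKM. Gsk3a stood at 43.0 ± 1.09 FPKM, above Gsk3b at 24.2 ± 0.178 FPKM. The scaffolds differed, with Axin1 at 25.7 ± 0.573 FPKM and Apc at 13.4 ± 0.178 FPKM. Btrc, the substrate receptor of the ubiquitin ligase, was the lowest of the 10 at 6.53 ± 0.0971 FPKM, above 38.0% of the tested genes. In reads, the lowest count of any member was 1801, for Dvl2, and the highest 26675, for Ctnnb1.

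In the order of control levels (Ctnnb1, Csnk1a1, Gsk3a, Dvl1, Axin1, Gsk3b, Dvl3, Dvl2, Apc, Btrc), no neighbours overlapped in their 3 control libraries. Ctnnb1 lay 2.36-fold above Csnk1a1, and Apc 2.05-fold above Btrc. The closest neighbours were Axin1 and Gsk3b, 1.06-fold apart, and Dvl1 and Axin1, 1.10-fold apart. Over all 12 libraries the ranges of Dvl1 and Axin1 overlapped, as did those of Gsk3b and Dvl3, although Dvl1 exceeded Axin1 within 12 of 12 libraries and Gsk3b exceeded Dvl3 within 10 of 12. In control cells Ctnnb1 RNA was 6.87 ± 0.0804 times that of Axin1 and 13.2 ± 0.313 times that of Apc.

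**Figure D1:**
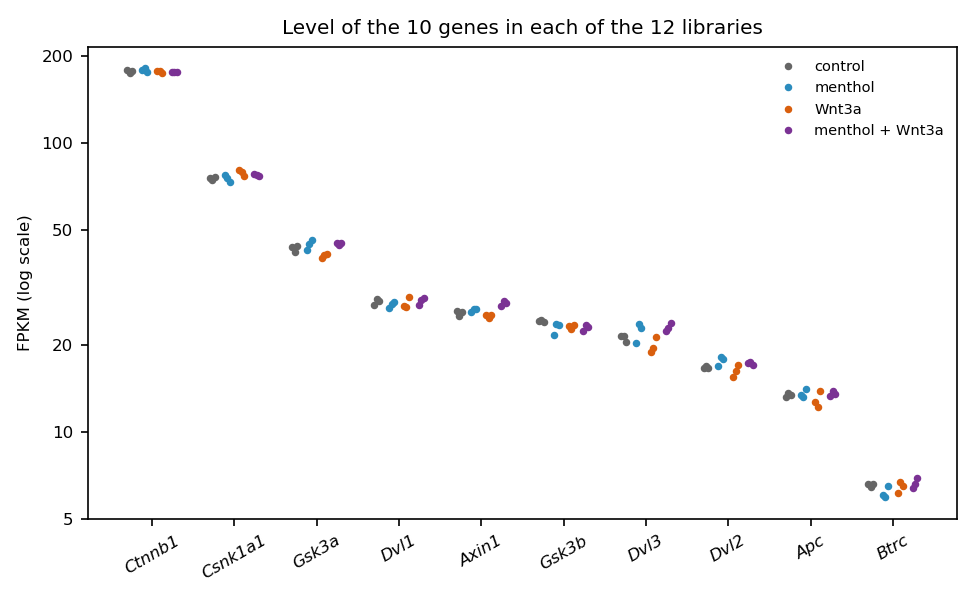
FPKM of each gene (y axis, log scale) in each of the 12 libraries, coloured by group and ordered by the control mean. The 4 groups of a gene sit close together beside the distance between genes, which runs from 177 FPKM for Ctnnb1 to 6.53 FPKM for Btrc in control cells.

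Ctnnb1 itself did not differ detectably between the groups. Its level was 178, 175 and 178 FPKM in the control libraries, 178, 181 and 176 with menthol, 177, 177 and 175 with Wnt3a, and 175, 176 and 176 with menthol and Wnt3a. The lowest and the highest of the 12 libraries were 1.03-fold apart, and every pair of groups overlapped. On the log2(FPKM + 0.1) scale, on which all differences below are given, Wnt3a against control was -0.0043 (95% interval -0.053 to 0.045, limma adjusted p = 0.95). Menthol against control was 0.012 (95% interval -0.037 to 0.061, limma adjusted p = 0.911). Menthol with Wnt3a against Wnt3a was -0.0056 (95% interval -0.055 to 0.044, limma adjusted p = 0.938). Over these 3 comparisons the intervals ran from -3.72% to 4.34% of the Ctnnb1 level. Ctnnb1 was also steady between replicates, with a standard deviation within groups of 0.0137 on the log2 scale, where the median of the 320 genes of like level was 0.0408 and 0.312% of them were steadier.

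Over the whole group of genes, none passed an adjusted p under 0.05 in limma on log2(FPKM + 0.1), in any of the 8 comparisons tested; the members that passed in limma voom on recovered reads are named with their values below. The comparisons share libraries and are not independent of each other. In menthol against control, 0 of 10 passed (0.105% of all tested genes did), 0 of 10 had an unadjusted p under 0.05 (9.34% of all genes) and 2 of 10 had groups that did not overlap (15.9% of all genes). In Wnt3a against control, 0 of 10 passed (0.437%), 2 of 10 had an unadjusted p under 0.05 (15.1%) and 3 of 10 did not overlap (20.2%). In menthol with Wnt3a against Wnt3a, 0 of 10 passed (0.0524%), 3 of 10 had an unadjusted p under 0.05 (14.5%) and 4 of 10 did not overlap (17.7% in either direction). All 4 were higher with menthol, and 1043 of the 11451 tested genes did not overlap in that direction. Whether a count of members differed from the share of all genes was not tested.

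In menthol with Wnt3a against menthol, 0 of 10 passed (0.0961%), 1 of 10 had an unadjusted p under 0.05 (6.72%) and 1 of 10 did not overlap (11.3%). In menthol with Wnt3a against control, 0 of 10 passed (0.83%), 1 of 10 had an unadjusted p under 0.05 (13.5%) and 6 of 10 did not overlap (20.5%). In the interaction of menthol and Wnt3a, 0 of 10 passed (0% of all genes, also in voom) and 1 of 10 had an unadjusted p under 0.05 (6.99%). With libraries pooled over the other agent, 6 against 6, 0 of 10 passed for Wnt3a (0.803%) and 0 of 10 for menthol (1.15%), while 1 of 10 had an unadjusted p under 0.05 for Wnt3a (14.2%) and 4 of 10 for menthol (15.5%). The changes were small throughout: over the 10 genes the 5 pairwise differences lay between -0.09 and 0.21, with medians from -0.041 (Wnt3a against control) to 0.056 (menthol with Wnt3a against Wnt3a). Over all tested genes the medians of these comparisons lay between -0.0017 and 0.0043.

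**Figure D2:**
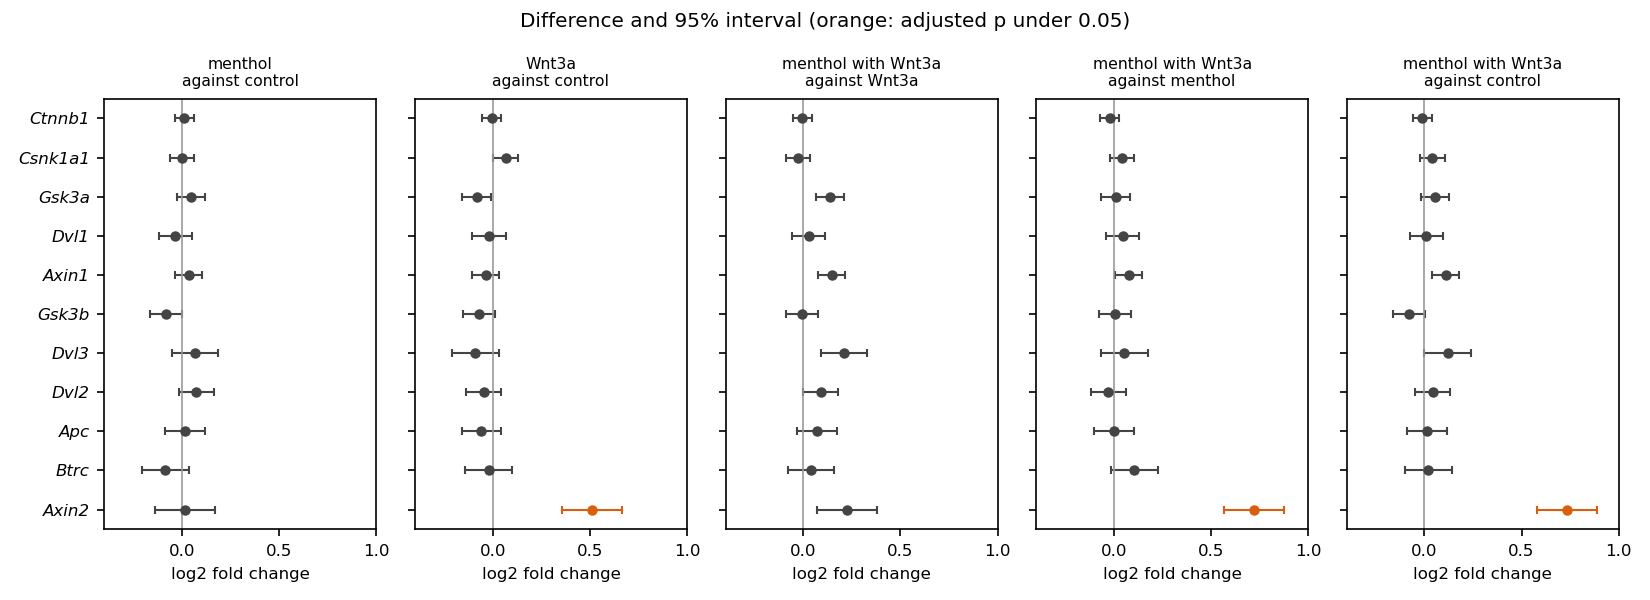
Log2 fold change (x axis) with its 95% interval for the 10 genes and for Axin2 in the 5 pairwise comparisons, from the limma fit over all tested genes. Intervals of the 10 genes lie near 0, the furthest being Dvl3 at 0.21 in menthol with Wnt3a against Wnt3a, while Axin2 lies at 0.51, 0.72 and 0.73 in the comparisons of a group given Wnt3a with one not given it.

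The GSK3 kinases, which phosphorylate beta-catenin after casein kinase 1α has primed it, came from 2 genes with different profiles. Gsk3a was at 43.4, 41.8 and 43.9 FPKM in control, 42.6, 44.7 and 46.1 with menthol, 39.9, 40.8 and 41.2 with Wnt3a, and 44.97, 44.3 and 44.9 under both agents. All Wnt3a libraries lay below all control libraries and below all libraries given both agents. The difference between Wnt3a and control was -0.083 (95% interval -0.16 to -0.01, limma adjusted p = 0.266). Between menthol with Wnt3a and Wnt3a it was 0.14 (95% interval 0.066 to 0.21, limma adjusted p = 0.117), which is 10.1% on the linear scale. Pooled 6 against 6, Gsk3a was 0.093 higher with menthol (limma adjusted p = 0.0822), and without menthol replicate 1 the value was 0.11 and passed (limma adjusted p = 0.0419).

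Gsk3b was at 24.2, 24.3 and 24.0 FPKM in control, 21.6, 23.6 and 23.4 with menthol, 23.2, 22.6 and 23.3 with Wnt3a, and 22.3, 23.4 and 23.0 under both agents. Each of the 9 stimulated libraries lay below each of the 3 control libraries, and the stimulated groups overlapped one another. The differences from control were -0.082 with menthol (limma adjusted p = 0.536), -0.069 with Wnt3a (limma adjusted p = 0.429) and -0.077 with both (limma adjusted p = 0.405), and these 3 values share the same control libraries. Their intervals reached from -10.7% to 0.941% on the linear scale.

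As a share of the summed FPKM of both genes, Gsk3a made up 64.0 ± 0.747% in control, 66.1 ± 0.486% with menthol, 63.8 ± 0.541% with Wnt3a and 66.1 ± 0.708% under both agents (SD, n = 3). The ratio of Gsk3a to Gsk3b was 1.79, 1.72 and 1.83 in control and 1.72, 1.80 and 1.77 with Wnt3a, against 1.97, 1.90 and 1.97 with menthol and 2.02, 1.89 and 1.95 under both agents. The 6 libraries given menthol thus lay above the 6 not given it. This ratio was singled out after its values were seen, and no test was run on it. Counted in reads rather than per length, Gsk3b was the larger, at 69.5% of the sum in control, because its gene model is 9004 bases long and that of Gsk3a 2223.

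Axin1, the scaffold of the destruction complex, was at 26.1, 25.1 and 26.0 FPKM in control, 25.9, 26.6 and 26.5 with menthol, 25.3, 24.7 and 25.3 with Wnt3a, and 27.2, 28.4 and 27.8 under both agents. The 3 libraries given both agents were the highest of the 12. The difference between menthol with Wnt3a and Wnt3a was 0.15 (95% interval 0.076 to 0.22, limma adjusted p = 0.0879), and against control it was 0.11 (limma adjusted p = 0.152). With limma voom on the recovered reads, scaled by size factors, the first of these reached an adjusted p of 0.05, just under the threshold before rounding. The interaction of menthol and Wnt3a for Axin1 was 0.11 (95% interval 0.014 to 0.21, limma adjusted p = 0.715).

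Apc, the large tumour suppressor scaffold, was at 13.2, 13.6 and 13.4 FPKM in control, 13.3, 13.2 and 14.0 with menthol, 12.6, 12.2 and 13.8 with Wnt3a, and 13.3, 13.8 and 13.4 under both agents, and every pair of groups overlapped. Its differences were 0.014 for menthol against control (limma adjusted p = 0.956), -0.058 for Wnt3a against control (limma adjusted p = 0.608) and 0.072 when menthol with Wnt3a was set against Wnt3a alone (limma adjusted p = 0.509). Btrc overlapped between all groups too, and ranged from 5.94 to 6.93 FPKM over the 12 libraries. For menthol against control its difference was -0.086 (95% interval -0.21 to 0.034, limma adjusted p = 0.682), so that a change of Btrc of up to -13.3% lay within the interval.

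Csnk1a1 was the member whose level was higher in all Wnt3a libraries than in all control libraries. It was at 75.5, 74.0 and 75.8 FPKM in control, 77.1, 75.2 and 73.0 with menthol, 80.4, 79.1 and 76.5 with Wnt3a, and 78.2, 77.1 and 76.4 under both agents. The difference between Wnt3a and control was 0.067 (95% interval 0.0035 to 0.13, limma adjusted p = 0.302). Pooled 6 against 6, Csnk1a1 was 0.054 higher with Wnt3a (limma adjusted p = 0.251), or 3.81% on the linear scale.

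The Dishevelled proteins carry the signal from Frizzled to the destruction complex. Dvl1 was the most abundant of the 3 genes in every library, with 42.7 ± 0.755% of their summed FPKM in control, ahead of Dvl3 with 32.0 ± 0.741% and Dvl2 with 25.3 ± 0.232%. Over the 12 libraries the shares ranged from 40.0 to 44.3% for Dvl1, from 30.7 to 34.03% for Dvl3 and from 24.4 to 26.4% for Dvl2.

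Dvl3 was at 21.5, 21.5 and 20.5 FPKM in control, 20.3, 23.5 and 22.8 with menthol, 18.9, 19.5 and 21.2 with Wnt3a, and 22.3, 22.9 and 23.7 under both agents. All libraries given both agents lay above all those given Wnt3a alone, by 0.21 on average (95% interval 0.089 to 0.33, limma adjusted p = 0.139), or 15.6% on the linear scale, the largest difference of any member in the 5 pairwise comparisons. With limma voom on the recovered reads this difference passed, at an adjusted p of 0.0332 when scaled by library totals and 0.0257 when scaled by size factors. Dvl3 was also the least steady of the 10 between replicates, with a standard deviation within groups of 0.0765, above 76.5% of the 1950 genes of like level. Pooled 6 against 6, Dvl3 was 0.14 higher with menthol (limma adjusted p = 0.117). It passed without menthol replicate 1 (0.17, limma adjusted p = 0.0336) and in voom (adjusted p = 0.0288 by totals and 0.0211 by size factors).

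Dvl2 was at 16.6, 16.8 and 16.6 FPKM in control, 16.8, 18.05 and 17.9 with menthol, 15.4, 16.2 and 16.9 with Wnt3a, and 17.3, 17.4 and 17.01 under both agents. All menthol libraries lay above all control libraries and all libraries with both agents lay above those with Wnt3a alone, by 0.073 (limma adjusted p = 0.625) and 0.09 (limma adjusted p = 0.346). Pooled 6 against 6, Dvl2 was 0.082 higher with menthol (limma adjusted p = 0.202). Dvl1 overlapped between all groups and ranged from 26.7 to 29.3 FPKM, with a difference of -0.018 for Wnt3a against control (95% interval -0.1 to 0.068, limma adjusted p = 0.871).

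**Figure D3:**
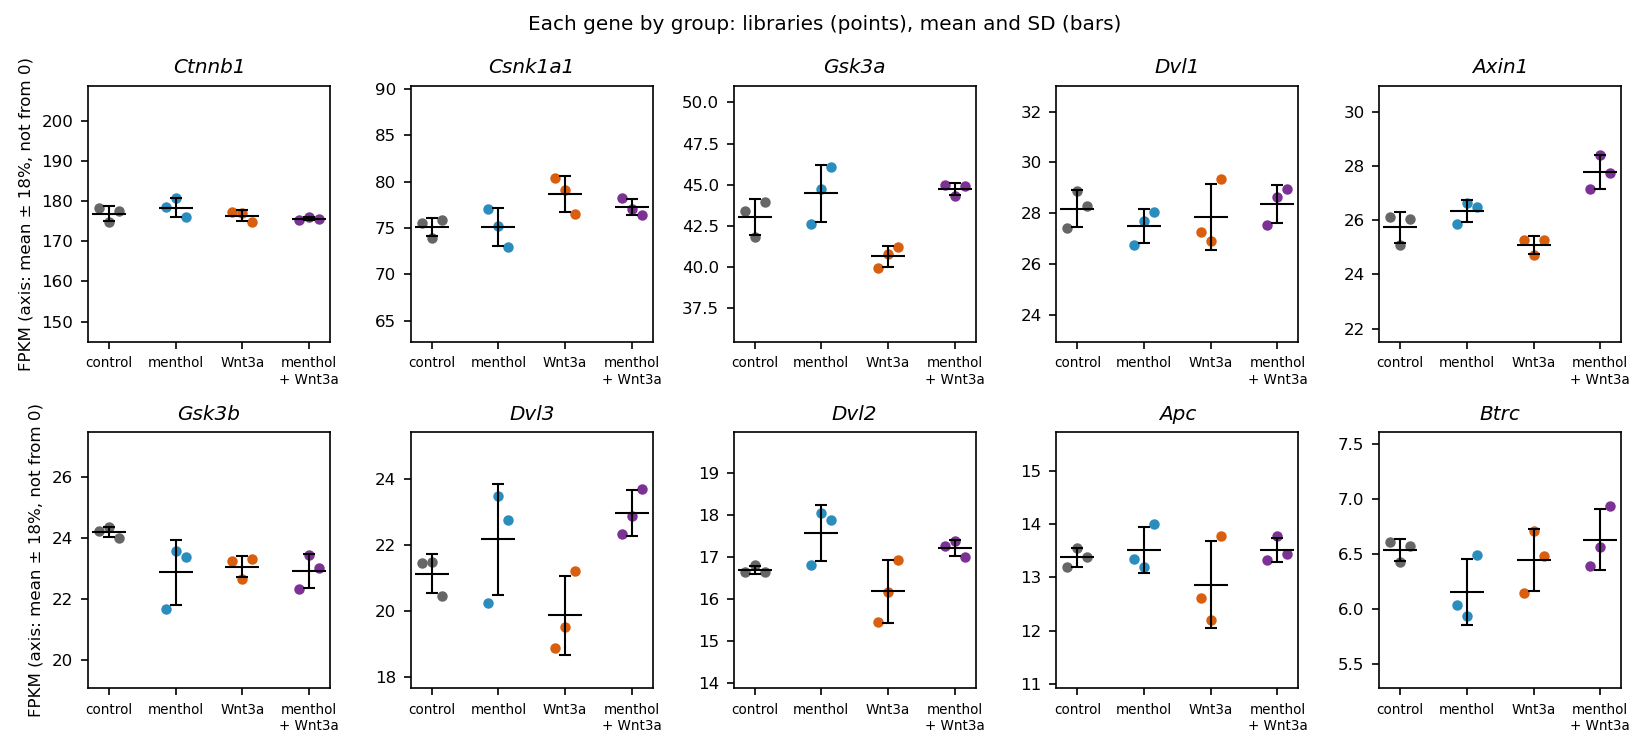
FPKM of each of the 10 genes by group, with 1 point per library and the mean ± SD of the 3 libraries as bars. Each y axis spans 18% on either side of the mean of its gene and does not start at 0. Ctnnb1 is level across the groups, Gsk3b is highest in control, and Axin1 is highest with menthol and Wnt3a together.

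Gsk3a, Axin1, Dvl2 and Dvl3 were the members whose libraries with both agents lay above those with Wnt3a alone, and that difference is part of their correlation over the same 12 libraries. Pearson's r was 0.869 for Dvl2 with Dvl3, 0.831 for Gsk3a with Dvl3, 0.824 for Gsk3a with Dvl2, 0.781 for Gsk3a with Axin1, 0.77 for Axin1 with Dvl3 and 0.579 for Axin1 with Dvl2. Such values were not particular to these genes. Apc, whose groups all overlapped, had r of 0.68 with Dvl2, 0.646 with Dvl3, 0.593 with Gsk3a and 0.488 with Axin1. With the same 4 genes Csnk1a1 had r of -0.687 (Dvl2), -0.583 (Dvl3), -0.57 (Gsk3a) and -0.138 (Axin1), and its lowest r was with Apc, at -0.706. These values describe 12 libraries that also share their depth and groups, and are given without a test. The tested genes most like Ctnnb1 over the 12 libraries were Cdca7 (r = 0.884), Sumf1 (r = 0.843) and Cenpn (r = 0.837). Those most like Gsk3b were Ncam1 (r = 0.942), Actn4 (r = 0.906) and Prkca (r = 0.888).

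Among the other partners of the destruction complex, Axin2 was the gene called. Of 35 listed partners and subunits of the ubiquitin ligase, 28 were tested. Their most abundant members were Skp1, the ligase adaptor, at 209 FPKM over all libraries, Ppp2r1a, the scaffold of protein phosphatase 2A, at 121 FPKM, and Strap at 110 FPKM. The call of Axin2 was made in 4 of the 8 comparisons, and the median difference of the list in the 8 comparisons lay between 0.0028 and 0.033.

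Axin2 was at 5.07, 5.07 and 4.72 FPKM in control, 4.55, 5.19 and 5.28 with menthol, 6.56, 7.31 and 7.45 with Wnt3a, and 7.83, 8.71 and 8.37 under both agents. The groups with Wnt3a lay wholly above those without it. Axin2 rose by 0.51 with Wnt3a (95% interval 0.36 to 0.66, limma adjusted p = 0.00875), by 0.72 when Wnt3a was added to menthol (limma adjusted p = 0.000645) and by 0.73 with both against control (limma adjusted p = 0.000209). The first of these calls was lost without control replicate 3 (0.48, limma adjusted p = 0.0511) and without Wnt3a replicate 2 (0.49, limma adjusted p = 0.0563). All Axin2 values with both agents were above those with Wnt3a alone, by 0.22 (95% interval 0.068 to 0.38), which did not pass (limma adjusted p = 0.201). Pooled 6 against 6, the rise with Wnt3a was 0.62, or 53.2% (limma adjusted p = 4.17e-05). In control cells Axin1 RNA stood well above that of Axin2, at 25.7 ± 0.573 against 4.95 ± 0.201 FPKM.

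**Figure D4:**
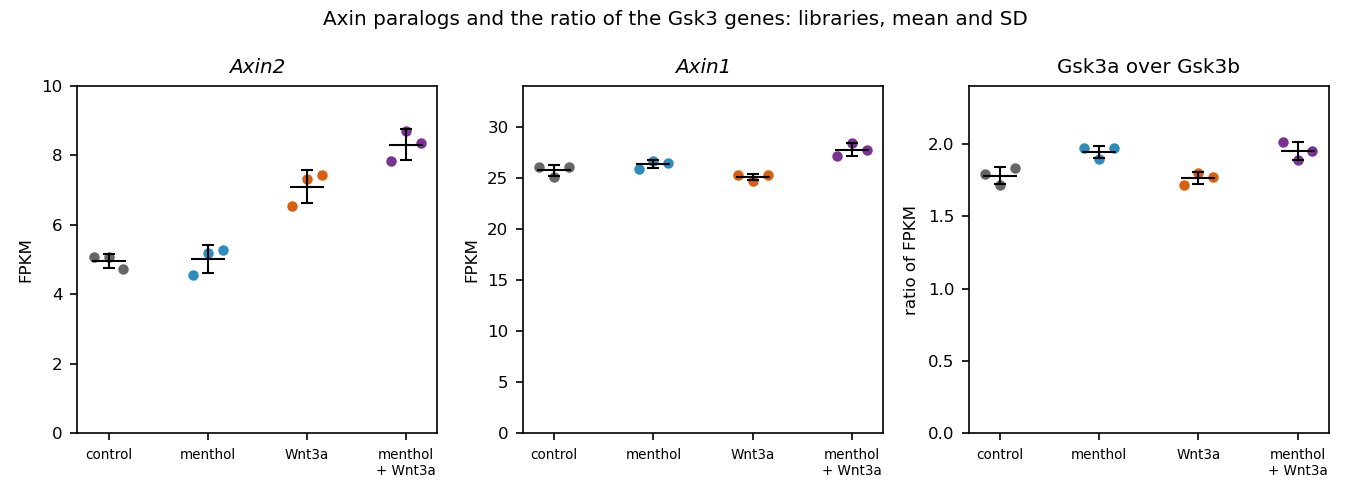
Axin2 and Axin1 in FPKM and the ratio of Gsk3a to Gsk3b by group, on axes that start at 0, with 1 point per library and the mean ± SD of 3 libraries. Axin2 is higher in the groups given Wnt3a, Axin1 stays between 24.7 and 28.4 FPKM, and the ratio lies between 1.89 and 2.02 with menthol and between 1.72 and 1.83 without it.

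The nuclear partners of beta-catenin were present at lower levels and none was called. Of 21 listed, 18 were tested, led by Smarca4, a chromatin remodeller, at 37.1 FPKM, Pygo2 at 28.9 FPKM and Ctnnbip1, an inhibitor of the beta-catenin and TCF interaction, at 28.3 FPKM. Among the TCF and LEF factors, Tcf7l2 averaged 2.65 FPKM and Tcf7 1.13 FPKM, while Tcf7l1 and Lef1 stayed under 0.5 FPKM on average. Of the 15 junction partners, 14 were in the table and 8 were tested. Ctnna1, which links beta-catenin to actin, was the highest at 134 FPKM, followed by Vcl (vinculin) at 111 FPKM and Ctnnd1 (p120 catenin) at 49.8 FPKM.

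Vcl and the cadherin gene Cdh3 were the junction genes called. Vcl fell from 121 ± 3.87 FPKM in control to 104 ± 2.85 with both agents (-0.23, limma adjusted p = 0.00481), and was also lower over the menthol groups (-0.12, limma adjusted p = 0.0278). Cdh3 fell from 16.8 ± 0.265 to 14.1 ± 0.744 FPKM (-0.25, limma adjusted p = 0.0443) and was lower over the menthol groups (-0.16, limma adjusted p = 0.046). With menthol alone against control, Vcl was -0.15 and Cdh3 -0.24 (limma adjusted p = 0.133 and 0.128). With Wnt3a alone they were -0.14 and -0.16 (limma adjusted p = 0.0867 and 0.172), so that neither agent alone gave a call. Over the Wnt3a groups, Vcl was -0.11 and Cdh3 -0.082 (limma adjusted p = 0.0538 and 0.329). Neither gene reached the 2-fold threshold. In the other alternatives, the Vcl call of both agents against control held in 21 of 21 and the Cdh3 call in 11 of 21. Over the menthol groups, the Vcl call held in 14 of 20 and the Cdh3 call in 9 of 20. The Cdh3 call against control was lost without control replicate 1, 2 or 3, menthol replicate 2, Wnt3a replicate 1 or 2, or menthol with Wnt3a replicate 1 or 2 (adjusted p of 0.0541 to 0.152). Over the menthol groups it was also lost without menthol replicate 1 or Wnt3a replicate 3 (0.0727 and 0.0768). The Vcl call over the menthol groups was lost without control replicate 1 (adjusted p = 0.0695), control replicate 2 (0.0754), menthol replicate 3 (0.0698), Wnt3a replicate 1 (0.0756) or menthol with Wnt3a replicate 3 (0.0636).

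Among 20 receptors and coreceptors, 19 were in the table, 14 were tested and none was called, with Ryk at 49.9 FPKM, Lrp5 at 18.9 FPKM and Lrp6 at 16.5 FPKM the most abundant. Of 16 feedback and target genes, 14 were in the table and 7 were tested. Axin2 was called upward as above, and Jun was called downward with Wnt3a, 6 against 6 (-0.16, limma adjusted p = 0.0318). That call of Jun held in 11 of 20 alternatives, the 2-fold threshold left aside. It was lost without control replicate 1, 2 or 3, menthol replicate 2 or 3, Wnt3a replicate 2, or menthol with Wnt3a replicate 1 or 3 (adjusted p of 0.0639 to 0.0821). Ccnd1 averaged 382 FPKM and Myc 31.9 FPKM, and neither was called. Of the 149 genes that the table places in the KEGG Wnt signaling pathway, 99 were tested, and Axin2 and Jun were the genes called in it. Of the 10 members, 9 carry that KEGG label, and Gsk3a does not.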

How the data were processed

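RNA of 12 ND7/23 libraries was analysed, 3 in each of 4 groups taken from the sample labels. By the methods and the submitters' processing notes, the authors extracted RNA with TRIzol, prepared libraries with the VAHTS Universal V6 kit, sequenced paired ends, filtered reads with fastp, aligned them with HISAT to mRatBN7.2, counted them with HTSeq and computed FPKM, and their own tests used DESeq2. The deposited values are FPKM per gene and library. FPKM is relative, so that a change in abundant genes shifts the rest; the 10 most abundant genes took 6.01 to 6.35% of reads. Whether the counting used strand is not given in the sources used here, so that reads of overlapping antisense genes cannot be told apart.

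Whole reads were recovered from the FPKM steps for 21556 of 21556 genes (within a relative distance of 1e-06; 1804 genes were above 0 in 1 library only). Precision is given for counting error and replicate spread only. Differences were tested with limma 3.58.1 in R 4.3.3 on log2(FPKM + 0.1), for genes with a mean of at least 0.5 FPKM, with all 4 groups in 1 fit, a variance trend, two-sided tests and Benjamini-Hochberg adjustment over 11451 genes. Genes at an adjusted p under 0.05 are described as called. The fits and the recovery of reads were tested on simulated data. The alternatives were other pseudocounts (0.01 and 1), other FPKM minimums, median centring, the replicate number as a block, fits of the compared groups alone, limma voom on recovered reads, a 2-fold threshold and each library left out. Those for Axin2, Vcl, Cdh3 and Jun were added after the values were seen. They leave out the 2-fold threshold, which no call of these genes met. No 2 libraries of a group agreed within sampling noise (chi-square per degree of freedom of 3.53 to 7.61). The members and gene lists were chosen with earlier results of these data known. Besides the 10 members, the text names from each list its 3 most abundant genes and every gene called, and the 3 genes most like Ctnnb1 and Gsk3b; TCF and LEF genes were named after their values were seen. Wnt3a, Tac1 and Tacr1 are not analysed here. Another gene of the marker lists is not reported here.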

Additional observations from a re-analysis of the deposited data

How the results depend on the processing

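The count of members called was 0 in every comparison and stayed at 0 except in menthol with Wnt3a against Wnt3a, where limma voom gave 1 with library totals and 2 with size factors, and in the menthol effect over 6 against 6 libraries, where voom gave 1 and 1 and leaving out 1 library gave 0 to 2. Over all 80 member differences (10 genes in 8 comparisons), 38 of 1650 recomputed values changed sign. For the 42 differences that are given singly or had an unadjusted p under 0.05, 875 values were recomputed, of which 858 kept their direction and side of the threshold, 7 came to pass it (Dvl3, Axin1 and Gsk3a, described above) and 10 changed sign. Csnk1a1 in menthol against control became 0.0037 in voom with size factors. With 1 library left out, ranges crossed 0 for Csnk1a1 (-0.0198 to 0.0196) and Apc (-0.012 to 0.031) in menthol against control, for Ctnnb1 (-0.013 to 0.0023), Btrc (-0.048 to 0.013) and Dvl1 (-0.056 to 0.0059) in Wnt3a against control, and for Gsk3b (-0.0246 to 0.0103) in menthol with Wnt3a against Wnt3a. Control levels and family shares moved by less than 1 SD in 55 of 60 recomputed values, the other 5 being shares counted in reads.

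The number of genes called over all tested genes depended strongly on the fit. It was 12 for menthol against control and 60 or 48 in voom (totals or size factors), 50 and 303 or 284 for Wnt3a against control, 6 and 143 or 159 for menthol with Wnt3a against Wnt3a, 11 and 33 or 29 against menthol, 95 and 261 or 257 against control, 92 and 279 or 276 for Wnt3a over 6 against 6, and 132 and 294 or 315 for menthol over 6 against 6. Without an FPKM minimum the counts were 2, 9, 0, 2, 60, 57 and 85 in that order, and 1 for the interaction. The interaction count was also 1 without control replicate 1 and without menthol with Wnt3a replicate 1, and 0 in the other settings. With the compared groups alone in the fit, the 5 pairwise counts were 3, 17, 0, 4 and 49. Centring gave 5 against menthol. A 2-fold threshold left 1, 2, 0, 0, 0, 0 and 1. With 1 library left out, the counts ranged from 0 to 15, 6 to 291, 0 to 38, 3 to 14, 41 to 100, 55 to 151 and 52 to 143. Without Wnt3a replicate 3, Wnt3a against control gave 291. Without an FPKM minimum, the calls of Axin2 with Wnt3a (adjusted p = 0.0529), Cdh3 (0.103 against control and 0.0949 over menthol), Jun (0.0831) and Vcl over menthol (0.062) were lost. The cause was not tested. Libraries with the same replicate number showed little shared deviation (r of -0.0551 to 0.153, over 0.1 in 1 of 18 pairs). Pairs with different numbers had r of -0.157 to 0.115. With 3 libraries per group these values cannot decide whether the numbers pair the samples. With the replicate block 0 members were called in any comparison, and the all-gene count moved beyond 1.5 times for menthol against control (21) and for menthol with Wnt3a against Wnt3a (24).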
